A study of Mus musculus with 24 samples.

Results

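The 6 genes described here encode the enzymes that finish peptide hormones inside secretory granules, together with their protein partners. They are Pcsk1, Pcsk2, Pcsk1n, Scg5, Cpe and Pam, selected by name from the 14027 genes of the table. RNA was sequenced from mouse pancreatic alpha cells, which make glucagon, and pancreatic beta cells, which make insulin. Each cell type was sampled at 6 islet isolation times given as zeitgeber time (ZT, hours after lights on), ZT0, ZT4, ZT8, ZT12, ZT16 and ZT20, with 2 libraries per cell type and time, so that 12 alpha and 12 beta libraries were compared. All mice carried the strain label triple reporter mouse, for both cell types and all times. As background, such mice carry a fluorescent reporter driven by the proglucagon promoter, another driven by an insulin promoter, and a luciferase reporter of the clock gene Per2, and the fluorescent reporters allow the cells to be separated. Each cell fraction is therefore defined by the activity of a hormone promoter. The labels used here state neither age nor sex, nor whether replicate libraries stem from different mice. The p-values below thus measure spread between libraries, which may be technical.

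A peptide hormone is made as a longer precursor, which is cut after pairs of basic residues by prohormone convertases as the granule matures and acidifies. Carboxypeptidase E then trims the basic residues from the cut ends, and peptides that end in glycine can be amidated. In beta cells both the Pcsk1 and the Pcsk2 convertase cut proinsulin, whereas in alpha cells the Pcsk2 convertase releases glucagon from proglucagon. The Pcsk1 convertase, in gut L cells, cuts the same proglucagon into glucagon-like peptides.

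All 6 genes are protein coding and lie on 5 mouse chromosomes (GRCm38, the assembly that mm10 names, with the GENCODE vM21 annotation). Pcsk1 (ENSMUSG00000021587) spans chr13:75089826-75134861 on the plus strand. Pcsk2 (ENSMUSG00000027419) spans chr2:143546156-143816285 on the plus strand, and Scg5 (ENSMUSG00000023236) spans chr2:113776362-113829121 on the minus strand. Pcsk1n (ENSMUSG00000039278) spans chrX:7919822-7924410 on the plus strand. Cpe (ENSMUSG00000037852) spans chr8:64592542-64693054 on the minus strand, and Pam (ENSMUSG00000026335) spans chr1:97795114-98095646 on the minus strand.

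RefSeq promoter windows (GRCm38.p6) were given for 5 of the 6 genes, all but Cpe. Every window runs from 250 bases before to a little after the RefSeq start. Only the 250 bases before the start were searched, on both strands. Among the motifs were the cAMP response element TGACGTCA and its short form TGACG. The short form lies within the full motif and reads CGTCA on the other strand. The 3 windows with a match are printed below over the 250 bases before the start, 5′ to 3′ on the gene's own strand with the matches in capitals, because they belong to the gene with the largest difference between the cell types and to the other convertase with its partner.
Pcsk1, chr13:75089607-75089856, plus strand: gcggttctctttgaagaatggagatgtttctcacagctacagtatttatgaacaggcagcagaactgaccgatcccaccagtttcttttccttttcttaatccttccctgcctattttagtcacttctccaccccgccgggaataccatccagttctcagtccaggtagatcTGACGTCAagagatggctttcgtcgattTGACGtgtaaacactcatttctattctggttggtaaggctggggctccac
Pcsk2, chr2:143545883-143546132, plus strand: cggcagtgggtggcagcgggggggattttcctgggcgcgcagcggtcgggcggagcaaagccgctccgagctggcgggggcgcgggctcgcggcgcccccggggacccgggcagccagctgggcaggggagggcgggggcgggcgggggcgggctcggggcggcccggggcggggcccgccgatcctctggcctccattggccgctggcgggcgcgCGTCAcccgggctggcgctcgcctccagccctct
Scg5, chr2:113829092-113829341, minus strand: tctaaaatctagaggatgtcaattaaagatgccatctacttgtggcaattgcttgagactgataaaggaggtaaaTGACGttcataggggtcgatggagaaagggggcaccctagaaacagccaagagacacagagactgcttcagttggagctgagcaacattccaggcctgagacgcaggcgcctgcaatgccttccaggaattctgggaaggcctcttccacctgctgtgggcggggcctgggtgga
The Pcsk1 window holds the full element from -78 to -71 and a separate short form from -50 to -46, counted from the RefSeq start. The Pcsk2 window has a single short form from -34 to -30, and the Scg5 window has one from -175 to -171. Of 32851 mouse promoters of the same length, 1.55% held the full element and 17.8% held at least the short form. Pcsk2 and Pam start in windows rich in G and C, with 82.4% of bases for Pcsk2 and 75.6% and 76.4% for the overlapping windows of Pam. The Pcsk1 window has 46.8%, against a median of 52.4% over all promoters. The E-box of the clock, CACGTG, was in none of the windows of these 5 genes over the 250 bases and in 6.02% of all promoters. Likewise the D-box TTATGTAA (0.819% of all promoters) and the ROR element AGGTCA (14.0%) were in none of these windows. A match is a description of the letters in these windows and does not show that a factor binds there.

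The libraries held between 4944982 and 12364190 reads assigned to genes. Levels are given in RPKM (reads per kilobase, corrected for the depth of each library), which allows genes to be set against each other. The alpha cell markers Gcg, Irx1 and Irx2 were higher in alpha cells, and all 6 beta cell markers (Ins1, Ins2, Pdx1, Mafa, Slc2a2, Ucn3) were higher in beta cells. RNA of the other cell type was present at a low level: the insulin genes took 0.0378% to 0.506% of reads in alpha libraries, against 16.4% to 26.0% in beta libraries, and Gcg took 16% to 24.2% in alpha libraries, against 0.00481% to 0.281% in beta libraries. Markers of other islet cells moved with the cell type. The 5 delta cell markers summed to 2513 to 5180 RPKM in alpha libraries, against 645 to 1421 RPKM in beta libraries, and the 3 PP cell markers summed to 27826 to 59540 RPKM in alpha libraries, against 359 to 1730 RPKM in beta libraries. Acinar markers summed to 17.3 to 287 RPKM in alpha libraries and 27.4 to 275 RPKM in beta libraries. Lower sums were found for other cells: 2 of 3 duct markers were measured and reached 78.6 RPKM in alpha libraries and 19.2 RPKM in beta libraries, 3 of 4 endothelial markers reached 2.12 and 1.67 RPKM, and 3 of 4 immune markers reached 22.2 and 15.4 RPKM, in the same order. The part of these cells in the differences below was not tested. The alpha and beta libraries of ZT4 replicate 1 and the alpha library of ZT16 replicate 1 carried the most RNA of the other cell type.

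Between the cell types, 4 of the 6 genes were higher in alpha cells (Pcsk1n, Pam, Pcsk2 and Scg5), 1 was lower in alpha cells (Pcsk1), and Cpe did not pass the test. The test was limma on the deposited log2 values with time as a factor, with Benjamini-Hochberg adjustment over all 14027 genes, and a single gene passed at an adjusted p under 0.05. At that threshold 74.9% of all genes passed, 37.8% higher in alpha cells and 37.2% higher in beta cells, so that a pass says little by itself and the sizes matter. When a fold of at least 2 was also required, Pcsk1n was called higher in alpha cells and Pcsk1 higher in beta cells, beside 11.2% and 9.54% of all genes, or 20.7% in all. The median of the log2 differences, alpha minus beta, was 0.66 over the 6 genes and 0.013 over all genes. Values of the 12 alpha libraries and of the 12 beta libraries were fully separate for 3 genes, Pcsk1, Pcsk2 and Pcsk1n, beside 26% of all genes. In bulk samples, fewer cells of a type and less RNA per cell cannot be told apart.

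**Figure D1:**
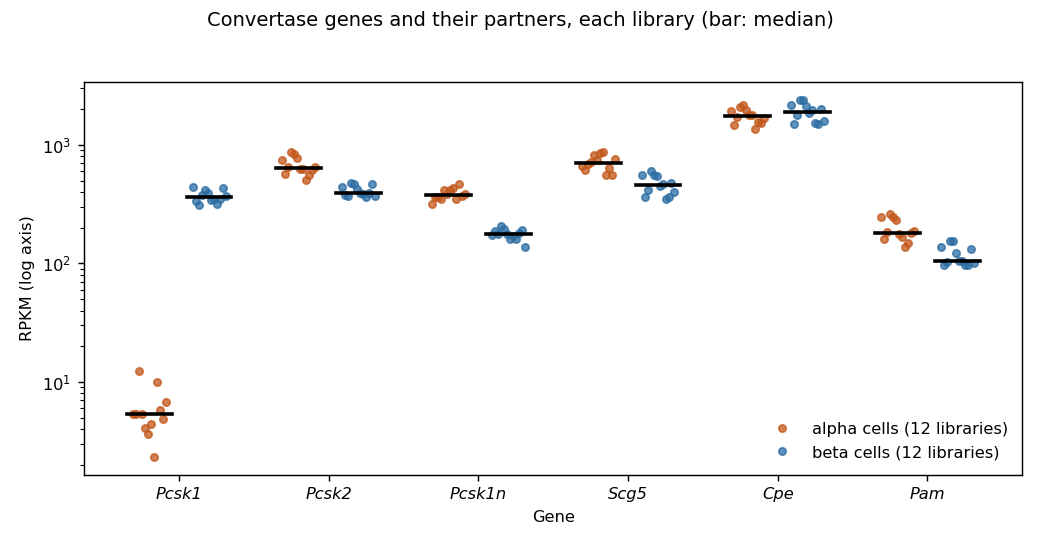
Level of each of the 6 genes in RPKM (vertical log axes) in 12 alpha libraries, drawn left, and 12 beta libraries, drawn right, with each point a library and the bar the median. The Pcsk1 points lie at 2.33 to 12.4 RPKM in alpha cells, against 310 to 444 RPKM in beta cells, whereas the Cpe points of both cell types overlap over most of their range.

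Pcsk1, whose convertase makes the early cuts in proinsulin, was the gene with the largest difference. It had a lowest value of 2.33, a median of 5.33 and a highest value of 12.4 RPKM in alpha libraries, against 310, 362 and 444 RPKM in beta libraries. The highest alpha library was thus far below the lowest beta library. Means were 5.87 ± 2.78 RPKM in alpha cells, against 371 ± 44.0 RPKM in beta cells (SD, n = 12 each) and the log2 difference between them came to -6.08 (SE 0.17; limma, adjusted p = 2.34e-18), 67.9-fold lower in alpha cells (95% interval 53.3 to 86.5). It was lower in alpha cells at all 6 times, and without the 3 libraries that carried the most RNA of the other cell type the log2 difference was -6.32. Pcsk1 was the 44th most abundant gene per kilobase in beta cells and the 6989th in alpha cells. Among all genes its beta-over-alpha fold was the 20th largest. Between 40 and 453 reads lay behind each alpha value and between 9092 and 13982 behind each beta value, so the alpha levels were low but well above the 0 reads of an undetected gene.

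The low Pcsk1 level in alpha libraries followed insulin RNA. As a share of the beta mean, Pcsk1 stood at 0.629% in the lowest, 1.44% in the median and 3.35% in the highest alpha library, and the lowest, median and highest shares of Ins2, one of the mouse insulin genes, were 0.162%, 0.490% and 2.09%. The 4 alpha libraries with the highest Pcsk1 were also the 4 with the highest Ins2 (ZT4 replicate 1, ZT16 replicates 1 and 2, and ZT20 replicate 2), and 3 of the 4 lowest were shared. In each of the 12 alpha libraries the Pcsk1 share was larger than the Ins2 share, by 1.60 to 3.88 times. If Pcsk1 had stood at the Ins2 share it would have had 0.600 to 7.74 RPKM, and the measured values exceeded that by 1.73 to 4.66 RPKM.

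Other beta cell genes gave a range of such shares in alpha libraries. Slc2a2, the glucose transporter of mouse beta cells, stood at 0.354% to 3.17% of its beta mean, and the peptide gene Ucn3 at 0.214% to 3.21%. Mafa, a transcription factor of mature beta cells, stood at 0.0517% to 3.64%. Pdx1, a transcription factor that is also active outside beta cells, had a higher share of 1.91% to 8.67%. The median shares were 0.604% for Slc2a2, 0.600% for Ucn3, 0.849% for Mafa and 4.34% for Pdx1, so the 1.44% of Pcsk1 lay between the first 3 genes and Pdx1. How much of the Pcsk1 RNA in alpha libraries came from beta cells was not tested.

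**Figure D2:**
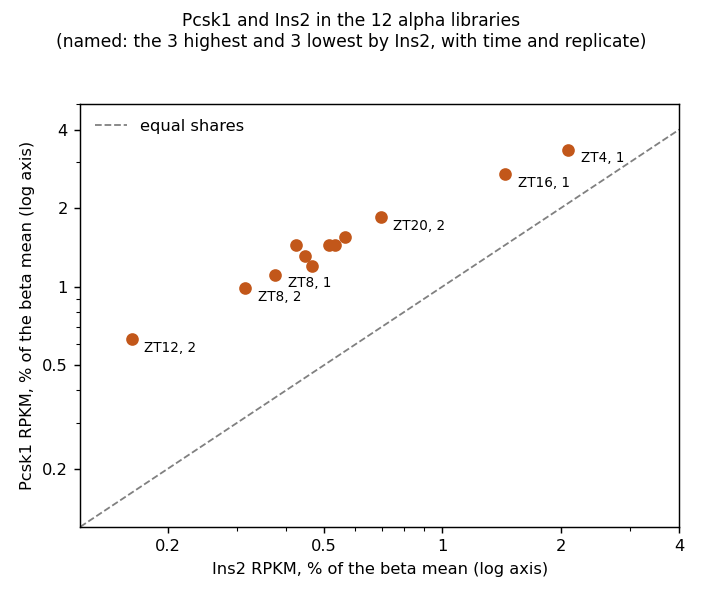
Pcsk1 (vertical log axis) against Ins2 (horizontal log axis) in the 12 alpha libraries, each as a percent of the gene's mean over beta libraries, with the dashed line where the shares are equal. All 12 points lie above the line, and the libraries ZT4 replicate 1 and ZT16 replicate 1 are highest on both axes.

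Pcsk2, the convertase that makes glucagon, was abundant in both cell types and higher in alpha cells. Alpha libraries had a lowest value of 508, a median of 638 and a highest value of 878 RPKM, against 360, 393 and 474 RPKM in beta libraries. The groups did not overlap, with the lowest alpha library (ZT16 replicate 1) above the highest beta library (ZT4 replicate 2). Means were 669 ± 114 RPKM in alpha cells, against 410 ± 42.4 RPKM in beta cells (SD, n = 12 each) and the log2 difference between them came to 0.69 (SE 0.07; limma, adjusted p = 8.82e-09), 1.62-fold (95% interval 1.46 to 1.79). Pcsk2 was higher in alpha cells at all 6 times and ranked 26th per kilobase in alpha cells and 38th in beta cells. Being a long transcript, it took 0.885% of alpha reads and 0.478% of beta reads. A pair of antisense genes, Pcsk2os1 and Pcsk2os2, overlaps it at 3.60 and 1.57 RPKM in alpha cells, against 4.07 and 0.700 RPKM in beta cells. The kit marks strand but how the counting used strand is not given in the sources used here, so the antisense values are uncertain beside the far higher level of Pcsk2.

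Pcsk1n encodes proSAAS, a granule protein whose peptides inhibit the Pcsk1 convertase, and it was highest in the cells with little Pcsk1. Alpha libraries had a lowest value of 318, a median of 377 and a highest value of 464 RPKM, against 137, 177 and 208 RPKM in beta libraries. The lowest alpha library lay above the highest beta library. Means were 384 ± 40.3 RPKM in alpha cells, against 176 ± 18.6 RPKM in beta cells (SD, n = 12 each) and the log2 difference between them came to 1.12 (SE 0.07; limma, adjusted p = 1.31e-12), 2.18-fold (95% interval 1.97 to 2.41). Pcsk1n was higher in alpha cells at all 6 times, by 1.86-fold at the smallest (ZT4) and 2.55-fold at the largest (ZT12). It ranked 41st in alpha cells and 121st in beta cells. Eras overlaps the end of Pcsk1n on the opposite strand and was not analysed here.

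Scg5 encodes the chaperone that carries the Pcsk2 convertase through the secretory pathway and allows it to mature. It was higher in alpha cells, as was Pcsk2, with a lowest value of 555, a median of 702 and a highest value of 873 RPKM in alpha libraries, against 352, 456 and 599 RPKM in beta libraries. The groups overlapped, since the lowest alpha library (ZT20 replicate 1) was below the highest beta library (ZT4 replicate 2). Means were 708 ± 108 RPKM in alpha cells, against 462 ± 87.8 RPKM in beta cells (SD, n = 12 each), a log2 difference of 0.63 (SE 0.08; limma, adjusted p = 5.04e-07) or 1.54-fold (95% interval 1.37 to 1.74). It was higher in alpha cells at all 6 times and ranked 23rd in alpha cells and 30th in beta cells.

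Cpe encodes carboxypeptidase E, which removes the basic residues that the convertases leave behind. Per kilobase it was the most abundant of the 6 genes in both cell types, ranking 12th in alpha cells and 10th in beta cells. Alpha libraries had a lowest value of 1358, a median of 1763 and a highest value of 2168 RPKM, against 1490, 1906 and 2401 RPKM in beta libraries, and the groups overlapped over most of their range. Means were 1755 ± 250 RPKM in alpha cells, against 1902 ± 331 RPKM in beta cells (SD, n = 12 each) and the log2 difference between them came to -0.11 (SE 0.08; limma, adjusted p = 0.206). The 95% interval of the alpha-over-beta ratio was 0.830 to 1.04, so a difference of the size seen for Pcsk2 or Pam lay outside it. The time means were nevertheless lower in alpha cells at all 6 times.

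Pam encodes the copper- and ascorbate-dependent enzyme that turns a terminal glycine into an amide. Neither glucagon nor insulin is amidated, whereas amylin in beta cells and pancreatic polypeptide in PP cells are. Pam had a lowest value of 138, a median of 182 and a highest value of 262 RPKM in alpha libraries, against 96.5, 106 and 155 RPKM in beta libraries. The groups overlapped at their edges. Means were 194 ± 41.7 RPKM in alpha cells, against 117 ± 22.4 RPKM in beta cells (SD, n = 12 each), a log2 difference of 0.72 (SE 0.09; limma, adjusted p = 9.94e-08) or 1.64-fold (95% interval 1.45 to 1.86), and it was higher in alpha cells at all 6 times. The annotation places a processed pseudogene, Gm3531, at 40.8 RPKM in alpha cells, against 27.5 RPKM in beta cells, within Pam on the same strand. B230216N24Rik lies there too at 0.844 and 0.252 RPKM in the same order, so reads within Pam could be split among these genes.

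Ratios taken within each library do not depend on library scaling. The Pcsk1 to Pcsk2 ratio was 0.00373 in the lowest, 0.00752 in the median and 0.0196 in the highest alpha library, against 0.793, 0.893 and 1.01 in beta libraries. Beta cells thus held nearly equal RPKM of both convertases, and alpha cells held mostly Pcsk2. The near-equality rests on the gene lengths behind the RPKM. Beta libraries held 9092 to 13982 reads of Pcsk1 and 40221 to 60268 reads of Pcsk2. The vM21 annotation gives these genes 5604 and 7910 exonic bases. The gap between the cell types in a ratio does not depend on these lengths. The geometric means of the Pcsk1 to Pcsk2 ratio differed 111-fold. The Pcsk1n to Pcsk1 ratio, the inhibitor's transcript over that of its enzyme, was 29.5, 72.5 and 184 in alpha libraries, against 0.368, 0.476 and 0.575 in beta libraries, a 150-fold difference.

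The chaperone and its enzyme kept a like proportion in both cell types. The Scg5 to Pcsk2 ratio was 0.814, 1.08 and 1.40 in alpha libraries, against 0.922, 1.12 and 1.29 in beta libraries, so the alpha range enclosed the beta range. Cpe over Pcsk2 was 2.37, 2.60 and 2.87 in alpha libraries, against 3.82, 4.72 and 5.15 in beta libraries, without overlap. Pam over Cpe was 0.0928, 0.110 and 0.128 in alpha libraries, against 0.0536, 0.0637 and 0.0661 in beta libraries, again without overlap. These ratios differed 1.74-fold and 1.77-fold, and the spread of each within a cell type was smaller than that gap. Pcsk1n over Scg5 was 0.478, 0.511 and 0.727 in alpha libraries, against 0.311, 0.363 and 0.517 in beta libraries, with overlap.

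**Figure D3:**
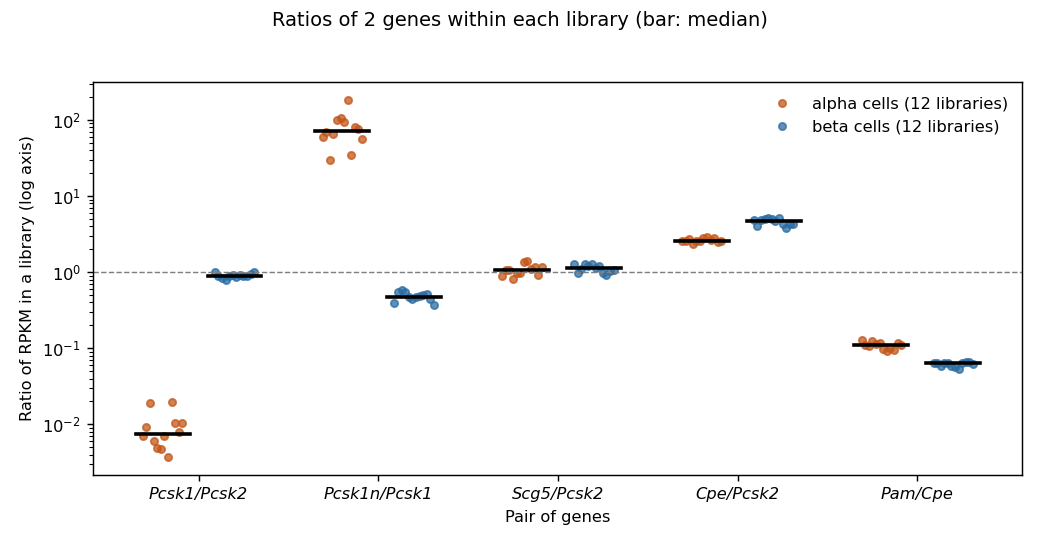
Ratios of RPKM between genes of the group, taken within each library (log axis), with alpha libraries drawn before beta libraries. The Pcsk1 to Pcsk2 ratio lies at 0.00373 to 0.0196 in alpha cells and 0.793 to 1.01 in beta cells, whereas the Scg5 to Pcsk2 ratio overlaps.

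Time of day was tested in each cell type with a cosine of 24 h, by limma's F-test adjusted over all genes. None of the 6 genes passed at an adjusted p under 0.05 in alpha cells, where 9.66% of all genes did, nor in beta cells, where 16% did. At an unadjusted p under 0.05, 3 genes passed in alpha cells (Pcsk2, Pam and Cpe), beside 29.7% of all genes, and 2 in beta cells (Scg5 and Cpe), beside 34.3%. Fitted with time as a factor instead, again none passed, beside 3.79% of all genes in alpha cells and 8.64% in beta cells.

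Pcsk2 in alpha cells came nearest to the threshold, with a fitted peak-to-trough fold of 1.41, a peak at 5.3 h and limma's adjusted p = 0.0618. Its libraries had 750 and 570 RPKM at ZT0, 645 and 878 at ZT4, 833 and 768 at ZT8, 632 and 626 at ZT12, 508 and 554 at ZT16, and 611 and 653 at ZT20. The 2 libraries of ZT8 were thus above those of ZT12, ZT16 and ZT20, whereas the 2 libraries of ZT0 and of ZT4 lay far apart. In 5 of 34 alternative fits this rhythm passed, for example with voom weights on the recovered reads (limma, adjusted p = 0.0393). It also passed without the alpha library of ZT4 replicate 1, a fit in which more of all genes had a called alpha rhythm. With time as a factor its adjusted p was 0.260 (limma). In beta cells Pcsk2 had 444 and 377 RPKM at ZT0, 372 and 474 at ZT4, 467 and 425 at ZT8, 395 and 383 at ZT12, 360 and 390 at ZT16, and 465 and 369 at ZT20, with a fitted fold of 1.12 (limma, adjusted p = 0.630).

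Pam and Cpe shared their highest and lowest times with Pcsk2. The mean over both libraries was highest at ZT8 and lowest at ZT16 for Pcsk2, Cpe and Pam in each cell type. Same-numbered alpha and beta libraries deviated together at some times (r over genes 0.647 at ZT0, 0.0413 at ZT20). The cell types may therefore not be independent in this. Pam had 247 and 231 RPKM in alpha cells at ZT8 and 138 and 148 RPKM at ZT16. The fitted alpha fold of Pam was 1.53 with a peak at 4.6 h (limma, adjusted p = 0.0751). This rhythm passed in 2 of 34 alternative fits, without the alpha library of ZT0 replicate 2 or of ZT4 replicate 1. With time as a factor its adjusted p was 0.264 (limma). In beta cells Pam had 154 and 123 RPKM at ZT8 and 96.5 and 96.9 RPKM at ZT16, and the fitted fold was 1.31 (limma, adjusted p = 0.267). Cpe had 2168 and 1961 RPKM in alpha cells at ZT8 and 1358 and 1553 RPKM at ZT16, and in beta cells 2401 and 2138 RPKM at ZT8 and 1523 and 1490 RPKM at ZT16. Its fitted folds were 1.35 in alpha cells and 1.37 in beta cells (by limma, with adjusted p-values of 0.161 and 0.114). The beta rhythm of Cpe passed in 2 of 34 alternative fits. These left out the beta library of ZT20 replicate 1 or the 3 libraries richest in RNA of the other cell type. With time as a factor its adjusted p was 0.396 (limma).

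Scg5 in alpha cells was highest at ZT12, with 861 and 873 RPKM, and lowest at ZT16, with 558 and 638 RPKM. In beta cells it was highest at ZT8, with 559 and 547 RPKM, and lowest at ZT16, with 352 and 360 RPKM. The fitted folds were 1.33 in alpha cells and 1.39 in beta cells (by limma, with adjusted p-values of 0.211 and 0.119). The beta rhythm of Scg5 passed in 2 of 34 alternative fits, without the beta library of ZT4 replicate 1 or without the 3 libraries named above. With time as a factor its adjusted p was 0.334 (limma). Replicate gaps were as large as the swings: the 2 beta libraries of ZT0 had 561 and 363 RPKM of Scg5.

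Pcsk1n had the smallest range of time means of the 6 genes in alpha cells on the log2 scale (0.31), with time means of 342 RPKM at ZT0 to 423 RPKM at ZT12 in alpha cells, and of 164 RPKM at ZT20 to 193 RPKM at ZT4 in beta cells. Fitted peaks were at 12.7 h in alpha cells and 4.6 h in beta cells. The difference of rhythm between the cell types had an adjusted p = 0.631 by limma but passed before adjustment, where 7.66% of all genes had an unadjusted p under 0.05 and 0.0713% passed the adjusted threshold.

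Pcsk1 in alpha cells had 5.33 and 5.33 RPKM at ZT0, 12.4 and 5.35 at ZT4, 4.12 and 3.65 at ZT8, 4.46 and 2.33 at ZT12, 9.97 and 5.76 at ZT16, and 4.85 and 6.84 at ZT20. The high values at ZT4 and ZT16 belonged to single libraries, the ones richest in Ins2. In beta cells the time means lay between 333 RPKM at ZT16 and 404 RPKM at ZT8, and the fitted fold was 1.09 (limma, adjusted p = 0.963). The beta-over-alpha fold was 71.9 at ZT0, 41.6 at ZT4, 103 at ZT8, 106 at ZT12, 43.6 at ZT16 and 69.2 at ZT20. The interaction of cell type with time as a factor had an adjusted p = 0.889 by limma for Pcsk1 and passed before adjustment, beside 5.56% of all genes with an unadjusted p under 0.05 and 0.0143% past the adjusted threshold. The alpha rhythm of Pcsk1 did not pass (limma, adjusted p = 0.266). It passed in 1 of 34 alternative fits, without the 3 libraries richest in RNA of the other cell type. That fit keeps a single alpha library at ZT4 and at ZT16. The lowest of the alpha libraries kept, ZT12 replicate 2 and both of ZT8, were also the lowest for Ins2. The part of beta cell RNA in this rhythm was not tested.

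**Figure D4:**
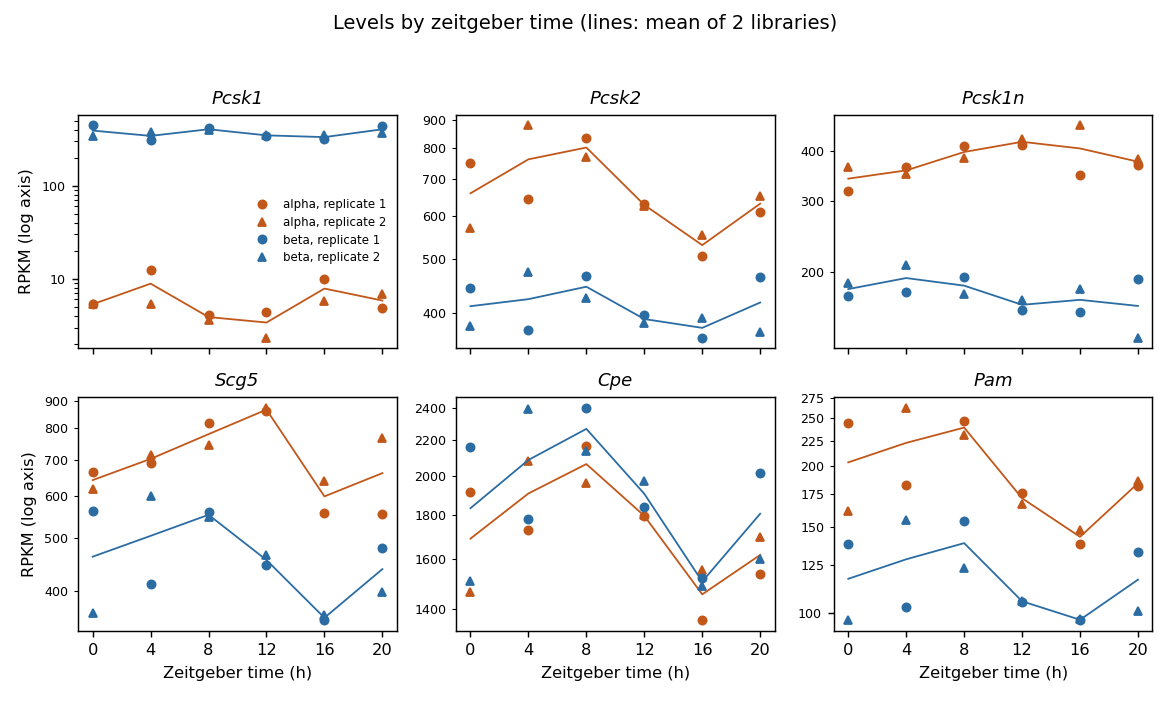
Level of the 6 genes in RPKM at each zeitgeber time (h), with each library a point, the line through the means of 2 libraries, and alpha cells listed before beta cells. In both cell types Pcsk2, Cpe and Pam are highest at ZT8 and lowest at ZT16, and for these genes the 2 libraries of ZT0 and of ZT4 lie apart.

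The same libraries were high or low for several of the genes. In alpha cells the 4 libraries with the highest Pcsk2, Cpe and Pam were also the 4 with the highest Gcg (ZT0 replicate 1, ZT4 replicate 2 and both of ZT8), and 3 of the 4 lowest were shared. Pcsk1 shared 0 of the 4 highest with Gcg, and Scg5 shared 1. In beta cells the 4 libraries with the highest Cpe and Scg5, and the 4 with the lowest, were also those of Ins2, and Pcsk1, Pcsk2 and Pam each shared 3 of the 4 highest. Pcsk1n shared 1 of the 4 highest with Gcg in alpha cells and 2 with Ins2 in beta cells. Because a hormone gene takes a large share of the reads in these libraries, its level and the scaling of the other genes are not independent, and their part in this pattern was not tested.

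Genes with the most similar pattern were ranked among 12446 genes by Pearson r of log2 values over the 24 libraries after each cell type's mean was removed. These values are descriptions, since libraries share depth and time. Pcsk1 was nearest to Ins2 (r = 0.96), Ins1 (0.96) and the prolactin receptor gene Prlr (0.93). Its log2 spread was larger in alpha libraries (SD 0.62) than in beta libraries (SD 0.17), so alpha libraries weigh most in these values. Within a cell type, its r with Pcsk2 was -0.32 in alpha libraries and 0.82 in beta libraries. Pcsk2 was nearest to Sdf4 (0.94), Efr3a (0.93) and Cand1 (0.92), and Pam to Usp9x (0.96), Atp6ap1 (0.95) and Pnrc1 (0.95). Cpe was nearest to Bsg (0.98), Itfg1 (0.98) and Rac1 (0.97), and Scg5 to Cst3 (0.93), Rnf115 (0.92) and Ociad2 (0.92). Pcsk1n had no close match, its nearest being Fdx1l (0.61), Tap1 (0.61) and Gnb1l (0.60).

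With the cell type means kept in, the gap between alpha and beta cells sets much of the value. Pcsk1 was again nearest to Ins2 and Ins1 (r = 1.00 each), followed by Bace2 (1.00). Pcsk2 was nearest to Sdf4 (0.98), Pld3 (0.97) and Tceb3 (0.97), and Pam to Sdf4 (0.98), Appbp2 (0.97) and Folr1 (0.97). Pcsk1n was nearest to Sema3e, Rgma and Jag1 (0.97 each). Scg5 was nearest to Rps15a (0.96), Cbfb (0.96) and Npc2 (0.95), and Cpe to Lin7c, Arl6ip1 and Yipf4 (0.96 each).

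A further 9 lists of related genes, with 65 of 76 genes measured, were set beside the 6 genes. For the counts below, 11.2% of all genes were called higher in alpha cells and 9.54% higher in beta cells. At the adjusted p alone these shares were 37.8% and 37.2%. All 7 other proprotein convertases were measured, with 1 called higher in alpha cells and 1 higher in beta cells. At the adjusted p alone, 2 had their higher level in alpha cells and 2 in beta cells, with a median of 0.094. Pcsk5 was called higher in alpha cells by the rule that also asks for a 2-fold change. Pcsk5 averaged 0.388 RPKM in alpha cells, against 0.0108 RPKM in beta cells, where at least 1 library had 0 reads, so its fitted 14.1-fold depends on the prior count. Furin, the convertase of the constitutive pathway, had 8.43 RPKM in alpha cells, against 7.94 RPKM in beta cells and did not pass (limma, adjusted p = 0.336). Pcsk7 had 6.42 and 6.01 RPKM in the same order (adjusted p = 0.262). Pcsk6 had 4.3 RPKM in alpha cells, against 6.49 RPKM in beta cells. It passed the adjusted p alone in the direction of beta cells (limma, adjusted p = 3.39e-07).

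Of 8 other carboxypeptidases 3 were measured, and 1 was called, higher in beta cells, with a median log2 difference of -0.69. Cpm, a carboxypeptidase of the cell surface, averaged 1.58 RPKM in alpha cells, against 5.57 RPKM in beta cells, 3.50-fold lower in alpha cells (limma, adjusted p = 1.19e-14). All 3 were far below Cpe, the others being Cpd at 17.8 RPKM in alpha cells, against 28.7 RPKM in beta cells and Cpn1 at 37.1 and 19.5 RPKM in the same order.

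The list of end capping enzymes with the copper and ascorbate supply of Pam had 8 of 9 genes measured, 1 called higher in alpha cells and 2 higher in beta cells, with a median of -0.77. Of the copper pumps, Atp7b averaged 1.79 RPKM in alpha cells, against 0.407 RPKM in beta cells (4.26-fold; limma, adjusted p = 4.32e-12), and Atp7a averaged 5.69 RPKM in alpha cells, against 12.6 RPKM in beta cells (2.13-fold lower in alpha cells; adjusted p = 1.10e-09). Cyb561, which passes electrons into the granule to renew ascorbate, averaged 14.1 RPKM in alpha cells, against 30.2 RPKM in beta cells (2.14-fold lower in alpha cells). Of the 4 cytosolic partners of the Pam protein, Rassf9 was called, with 2.34 RPKM in alpha cells, against 0.0484 RPKM in beta cells, where at least 1 library had 0 reads, and the median of the 4 was -0.32. The Pam transcript, its copper pumps and its partner thus did not all differ the same way, in a list whose genes were chosen by role.

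Granins, the acidic proteins that condense granule cargo, went largely the other way to Pcsk1n and Scg5: 0 of 5 were called higher in alpha cells and 3 higher in beta cells, with a median of -1.08. Scg2 averaged 762 RPKM in alpha cells, against 4863 RPKM in beta cells (6.39-fold lower in alpha cells; limma, adjusted p = 4.12e-19). Scg3 averaged 362 RPKM in alpha cells, against 875 RPKM in beta cells, and Chga averaged 3698 RPKM in alpha cells, against 7806 RPKM in beta cells. Of 9 measured prohormones, 4 were called higher in alpha cells and 5 higher in beta cells, with a median of -2.86. Ppy averaged 27972 RPKM in alpha cells, against 355 RPKM in beta cells, and Pyy 11927 and 217 RPKM in the same order. Iapp, the amylin gene and an amidated product, averaged 546 RPKM in alpha cells, against 30818 RPKM in beta cells. Gcg averaged 125268 RPKM in alpha cells, against 287 RPKM in beta cells. Ins2 averaged 1167 RPKM in alpha cells, against 174335 RPKM in beta cells, and Ins1 averaged 515 and 81619 RPKM in the same order, with the split of reads between these near-identical genes uncertain.

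The granule proton pump, which acidifies the compartment in which the convertases work, had 0 of 9 genes called higher in alpha cells and 3 higher in beta cells, and all 9 passed the adjusted p alone in the direction of beta cells (median -0.68). Atp6v1a averaged 10.2 RPKM in alpha cells, against 33.7 RPKM in beta cells (3.28-fold lower in alpha cells; limma, adjusted p = 2.85e-17). Atp6ap2 averaged 59.9 and 162 RPKM, and Atp6v1e1 62.2 and 164 RPKM, in the same order. No gene of the lists for dense-core vesicle biogenesis (12 of 14 measured) and peptide degradation (8 of 9 measured) reached a fold of 2. At the adjusted p alone, 2 and 7 of the biogenesis genes and 1 and 7 of the degradation genes had their higher level in alpha cells and in beta cells, with medians of -0.28 and -0.38.

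Some genes of these lists had a called rhythm, beside 9.66% of all genes in alpha cells and 16% in beta cells. In alpha cells they included Mbtps1, Cpm, Atp6v1e1, Atp6ap1 and Ctsb, and in beta cells Cpm, Cyb561, Atp7a, Hid1, Ica1, Ptprn, Arfip2 and Nrd1. Of 34 alternative fits, the alpha call was lost in 11 for Mbtps1, 10 for Atp6ap1, 8 for Ctsb, 5 for Atp6v1e1 and 3 for Cpm. The beta call was lost in 7 for Ptprn, 6 for Cpm, 5 for Cyb561, 2 for Arfip2 and 1 for Nrd1, and in 0 for Atp7a, Hid1 and Ica1. Atp7a had a fitted fold of 2.12 with a peak at 22.8 h in beta cells (limma, adjusted p = 0.00094), against a fold of 1.06 in alpha cells (adjusted p = 0.916), and the difference of rhythm did not pass (adjusted p = 0.149). Hid1, which acts in dense-core vesicle formation, had a fold of 1.99 with a peak at 19.4 h in beta cells (limma, adjusted p = 0.000191). In alpha cells Hid1 had a fold of 1.37 with a peak at 19.6 h (limma, adjusted p = 0.067). The difference of its rhythm did not pass (limma, adjusted p = 0.575).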

How the data were processed

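Total RNA of 12 alpha and 12 beta cell libraries was sequenced with a strand-marking kit and ribosomal RNA depletion, per the labels' protocols. The deposited table holds log2 RPKM made by the authors, as its values show, with a prior count of 2.0 on average. STAR, edgeR and the build mm10 are named per the submitters' processing notes, with no versions; for the annotation, strand setting and gene filter nothing is given in the sources used here. Whole reads were recovered from the value steps for 100% of 14027 genes (tolerance 0.001 of a read), and 0.774% of values were 0 reads. The recovered reads gave RPKM levels and depth, and 0 columns belonged to other samples. Depth limits precision for low genes such as Pcsk1 in alpha cells.

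Tests used limma 3.58.1 (R 4.3.3) with trend and robust prior on the deposited log2 values of all 24 libraries: the cell type difference with time as a factor, a cosine of 24 h per cell type, the difference of those cosines, and the interaction of cell type with time. Adjustment was over all genes (Benjamini-Hochberg), with a threshold of 0.05 and, for counts, a fold of 2. Through the prior count, folds of low genes are understated. The code was tested on simulated data. Replicates differed by more than sampling noise and all were used.

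The 6 genes and the lists were chosen with earlier results of these data known. Named beside them are Gcg, Ins1 and Ins2, and up to 4 called genes per list with the lowest adjusted p. Also named are the genes of the lists called rhythmic and, per member, the 3 genes with the highest r, with predicted genes passed over. Furin, Pcsk6, Pcsk7, Cpd and Cpn1 were added after their values were seen. List genes without values were not analysed here, and a few items are not reported here.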

Additional observations from a re-analysis of the deposited data

How the results depend on the processing

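The cell type results of the 6 genes kept their direction and their side of the threshold in all 33 alternative fits: the fold was 57.4 to 79.7 for Pcsk1, 2.13 to 2.23 for Pcsk1n, 1.58 to 1.65 for Pcsk2, 1.51 to 1.59 for Scg5 and 1.60 to 1.68 for Pam, and the adjusted p of Cpe was 0.052 to 0.352. Counts over all genes moved more. The cell type difference, with 2903 genes called (1565 higher in alpha cells), had 1602 (690) with log2(RPKM + 1) and 1755 (739) with a mean log2 RPKM above 0, and 2872 to 2939 when each library was left out. Genes with a rhythm in alpha cells numbered 1355, and 531 with time as a factor; those with a rhythm in beta cells numbered 2241, and 1212 with time as a factor. Leaving out 1 library gave 348 (without alpha ZT8 replicate 1) to 2252 (without alpha ZT4 replicate 1) in alpha cells, and in beta cells 1077 (without beta ZT16 replicate 2) to 3100 (without beta ZT0 replicate 2). The 10 genes with a difference of rhythm became 44 with log2(RPKM + 1) and 5 without the 3 libraries richest in RNA of the other cell type, and 4 to 14 with each library left out. The 2 genes with a cell type by time interaction became 29, 0 and, without trend and robust prior, 1, and 1 to 6 with each library left out. The causes were not tested. Same-numbered alpha and beta libraries did not all deviate together (r over genes 0.647, 0.422, 0.338, 0.104, 0.186 and 0.0413 at the 6 times), so the numbers were not taken as pairs; with a replicate block, 174 genes had a difference of rhythm and 34 an interaction, and no call of the 6 genes changed. The median log2 difference of all genes was 0.013, and 0.045 with median ratio size factors. Count models planned as alternatives (edgeR, DESeq2) were not run; voom weights on the recovered reads were added in their place after seeing the data. For Pcsk1 in alpha libraries, 40 to 453 reads limit precision.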
